A study of Mus musculus with 6 samples.

Results

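The genes described here are the AP-1 transcription factors Fos, Fosb, Fosl1, Fosl2, Jun, Junb and Jund and the early growth response factors Egr1 and Egr3. They were taken by symbol, with no threshold on a measured value, and looked up in the table of counts through their Ensembl transcripts. Of the 9 genes, 7 had a row among the 33676 genes with a listed transcript, and 6 had counts. Jun and Egr3 had no listed transcript, and their expression was not analysed here. RNA of the cochlear modiolus, the core of the cochlea that holds the spiral ganglion neurons (SGNs), was sequenced in 6 libraries from C57BL/6 mice, 3 control and 3 with SGN degeneration. By the study's methods, 8-week-old males received 1 g/kg kanamycin sulfate under the skin and 0.4 g/kg furosemide into the abdomen, a combination that ablates the hair cells, or saline, and the modiolus transcriptome was described at 30 days. Labels do not say whether libraries came from separate animals or from pooled tissue, so that p-values measure only the spread between these libraries. The comparison asks how the transcriptome of the modiolus differs once SGNs have degenerated.

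AP-1 is a pair of basic leucine zipper proteins, made of a Jun protein with another Jun, a Fos or a related protein, that binds short DNA elements in promoters and enhancers. Fos, Fosb, Junb and Egr1 are immediate early genes, switched on within minutes by growth factors, calcium entry or stress and silent again soon after, whereas Jund is expressed steadily in many cells. In injured peripheral neurons, Jun and its partner Atf3 are known to stay high for long periods and to take part in the program of regrowth or death. EGR proteins are zinc finger factors of the same early response, and Egr2 is known for myelination in Schwann cells.

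Libraries held 12480876 to 15549319 counts, and levels are given as CPM, the count scaled to the size of the library with TMM, a normalization for composition. Although the labels give the cell type as SGN, the libraries held many cell types. All 12 SGN markers tested were present, with a summed level of 12236 to 15673 CPM in the controls against 7201 to 10684 CPM after degeneration, and Calb2 and Pvalb were called lower. Macrophage markers summed to 331 to 394 CPM in the controls against 466 to 613 CPM after degeneration (2 of 4 tested called higher), hair cell markers to 712 to 979 and 498 to 603 CPM (2 of 7 lower), stria vascularis markers to 1459 to 1919 and 2059 to 2925 CPM (1 of 3 higher), bone markers to 505 to 910 and 208 to 399 CPM (2 of 4 lower) and fast muscle markers to 729 to 1189 and 328 to 517 CPM (1 of 3 lower). The fast muscle marker called lower was Pvalb, which is also among the SGN markers and counts in both sums. Schwann cell and satellite glia markers summed to 5453 to 9659 CPM in the controls against 4835 to 7641 CPM after degeneration (0 of 6 called). Fibroblast, endothelial cell, B cell and marrow markers had no call either. Calls follow the criteria given below, which 2.73% of all genes tested met. No marker with a row was at 0. Red cell markers, 4 of 5 with a row, ranged from 6391 to 40556 CPM in the controls and from 3459 to 16241 CPM after degeneration, with control 2, control 3 and degenerated 3 above 10000 CPM and none of the 4 called. Marrow markers ranged from 250 to 12842 CPM in the controls and from 599 to 4490 CPM after degeneration. In such bulk samples fewer cells of a type and less RNA per cell cannot be told apart. The part of these cell types in the values of AP-1 and EGR genes was not tested.

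None of the 6 AP-1 genes with counts was called. A call needed p below 0.01 before adjustment and a log2 fold change beyond 0.2 in either direction, which was met by 2.73% of the 14118 genes tested with edgeR's quasi-likelihood test (385 genes, 284 of them higher after degeneration and 101 lower). No gene of the 14118 had a Benjamini-Hochberg adjusted p under 0.05 in that test, and 1367 (9.68%) had an unadjusted p under 0.05, none of them an AP-1 gene. DESeq2 gave 383 genes with an adjusted p under 0.05 on the same counts, none of them an AP-1 gene. DESeq2 and limma-voom likewise called none of the 6. The log2 fold change was above 0 in 5 of the 6, while its median over all genes tested was -0.003. Fosl1 alone was separate between the groups, with every degenerated library above every control, a pattern that 10.3% of all genes tested showed in this direction and 7.37% in the other.

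**Figure D1:**
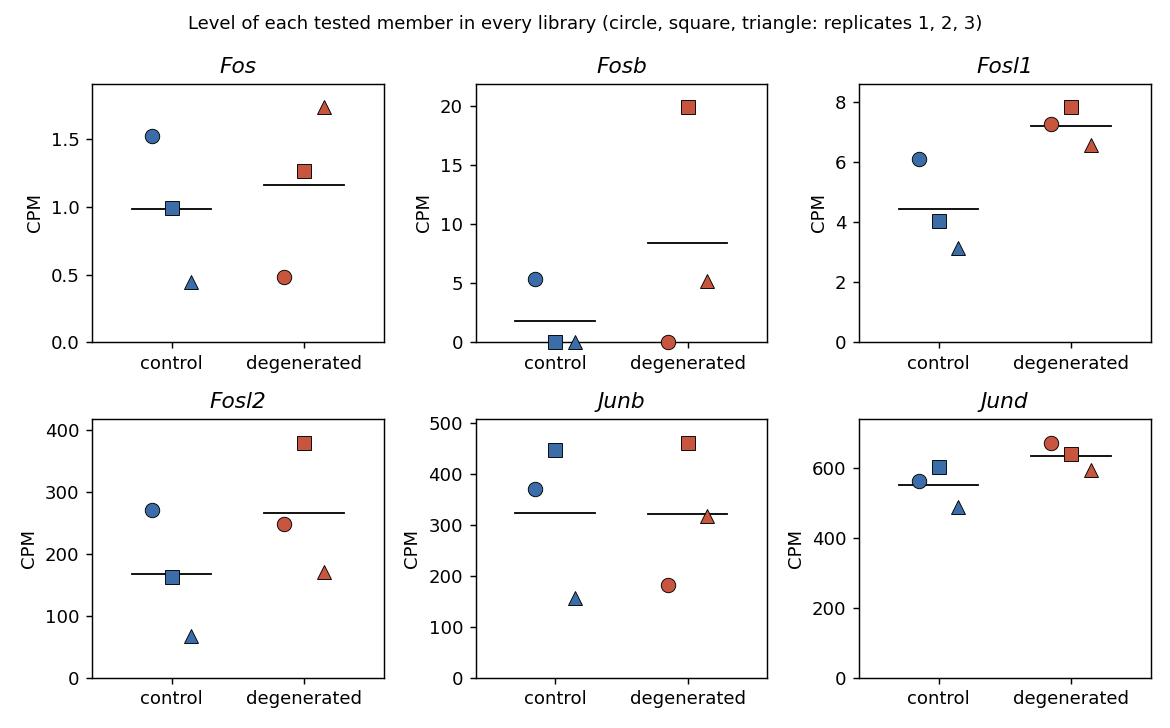
Level of the 6 AP-1 genes with counts in each library, in CPM with axes starting at 0, for control (blue) and degenerated (red) libraries. Black lines mark group means, and the groups are separate for Fosl1 alone, while Fosb is listed at 0 in control 2, control 3 and degenerated 1.

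Levels between genes were compared as CPM per kilobase of listed transcript. Jund was highest, at 292 to 403 CPM per kilobase over the 6 libraries, and Junb followed at 86.2 to 255. Fosl2 ranged from 10.3 to 59.6 CPM per kilobase, separate from both Jun genes. Fosl1 ranged from 1.68 to 4.19, Fosb from 0 to 5.45 and Fos from 0.536 to 2.08 CPM per kilobase, and these lowest 3 overlapped one another. Of the annotated transcripts, 1 of 4 was listed for Fos, 3 of 7 for Fosb, 1 of 3 for Fosl1 and 1 of 2 for Junb, so that these levels count a part of the gene. For Fos and Fosb the full mRNA was not among the listed ones, and their place in this order is that of the listed transcripts.

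Fos encodes the founding partner of Jun in AP-1. On chromosome 12 (chr12:85473890-85477273, plus strand, GRCm38), its only listed transcript was Fos-204, which is annotated as a processed transcript without a coding sequence. It holds 834 bases in 4 exons, of which 729 lie in coding bases of Fos-201, the full mRNA, which has no row. Its first exon of 105 bases (chr12:85474691-85474795) lies in the first intron of Fos-201, and is shown because it is the stretch that sets the counted transcript apart from that mRNA. Capitals mark the first exon, and the lower case bases open the second exon (GENCODE M21, GRCm38, 5′ to 3′):

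Fos-204: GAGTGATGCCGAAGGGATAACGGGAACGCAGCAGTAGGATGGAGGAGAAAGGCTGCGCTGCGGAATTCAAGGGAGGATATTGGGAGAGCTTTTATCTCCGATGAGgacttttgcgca

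Summed by gene, where Fos-204 is the only part, Fos had 23, 14 and 7 counts in control 1 to 3 and 7, 18 and 22 in degenerated 1 to 3, or 1.52, 0.990 and 0.447 CPM against 0.479, 1.27 and 1.74 CPM. Control 3 and degenerated 1 were low and the groups overlapped. The means were 0.987 ± 0.538 CPM (SD, n = 3) in control and 1.16 ± 0.636 CPM (SD, n = 3) in degenerated libraries, with a log2 fold change of 0.23 (SE 0.66, 95% interval -1.39 to 1.84, edgeR adjusted p = 0.932). There were 91 counts in all, and the value is one of a transcript without a coding sequence, not of the Fos mRNA. Over the 6 libraries, Supt5, Cse1l and Gm43376 had the profiles nearest to that of Fos. Their root mean square differences were 0.0846, 0.0918 and 0.111 in log2(CPM + 1) centred on each gene's mean, and a low gene is compressed on this scale. A search of 14118 genes over 6 libraries always finds near profiles, and shared regulation was not tested.

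Fosb encodes FosB, whose truncated form ΔFosB is known to persist in stimulated neurons. On chromosome 7 (chr7:19302696-19310051, minus strand), all its counts fell to Fosb-205, an mRNA with 4 exons and 897 coding bases (299 codons). Fosb-202 and Fosb-203 were listed at 0 in the 6 libraries. Neither Fosb-201, which carries the full coding sequence of 1014 bases (338 codons), nor Fosb-206, whose coding sequence of 711 bases (237 codons) lacks 140 bases of Fosb-201 as that of ΔFosB does, has a row. Fosb-205 skips 117 bases (39 codons) of the coding sequence of Fosb-201, at chr7:19307324-19307440. They are shown in capitals between 12 bases on each side (GENCODE M21, GRCm38, 5′ to 3′ on the minus strand), since the counted mRNA is the one without them:

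Fosb-201: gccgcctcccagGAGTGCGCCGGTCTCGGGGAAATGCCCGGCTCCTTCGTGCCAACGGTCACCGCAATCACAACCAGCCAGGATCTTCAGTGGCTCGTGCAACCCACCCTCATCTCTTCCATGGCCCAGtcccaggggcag

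Summed by gene, Fosb had 81, 0 and 0 counts in control 1 to 3 and 0, 283 and 66 in degenerated 1 to 3, which is 5.36 CPM in control 1, 19.9 CPM in degenerated 2 and 5.21 CPM in degenerated 3. The groups overlapped, and within each group the gene was listed at 0 in at least 1 library. Counts were estimated per transcript, and a 0 here can also be a failed assignment among overlapping transcripts. The log2 fold change of 2.22 (SE 2.32, edgeR adjusted p = 0.799) had a 95% interval from -3.46 to 7.91, the widest of the 6 genes. Without degenerated 2 it was 0.56. Without control 1 the remaining controls were at 0, and the fitted value of 9.90 then depends on the prior count and measures no fold.

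Fosl1 encodes Fra-1, a Fos protein without the strong activation domain of Fos that is itself a known AP-1 target. On chromosome 19 (chr19:5447547-5455946, plus strand), its one listed transcript, Fosl1-201, is a full mRNA. By gene, Fosl1 had 92, 57 and 49 counts in control 1 to 3 and 106, 111 and 83 in degenerated 1 to 3, or 6.09, 4.03 and 3.13 CPM against 7.25, 7.82 and 6.55 CPM. Every degenerated library was above every control. The mean was 4.42 ± 1.52 CPM (SD, n = 3) in control and 7.21 ± 0.635 CPM (SD, n = 3) in degenerated libraries, a ratio of 1.63, and the log2 fold change was 0.71 (SE 0.35, 95% interval -0.14 to 1.55). Its unadjusted p in edgeR, 0.0863, was the smallest of the 6 genes and did not pass the threshold (adjusted p = 0.576). Leaving out control 1 gave a log2 fold change of 1.00 (adjusted p = 0.370) and leaving out control 3 one of 0.50 (adjusted p = 0.816). Among the libraries low in red cell markers, control 1 with 6.09 CPM stood below degenerated 1 and 2 with 7.25 and 7.82 CPM. Among those rich in them, control 2 and 3 with 4.03 and 3.13 CPM stood below degenerated 3 with 6.55 CPM. Since the groups are separate, any split of the libraries gives this order, and the part of red cells was not tested.

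Fosl2 encodes Fra-2, the other Fos protein of this kind. On chromosome 5 (chr5:32135801-32157842, plus strand), all 3 annotated transcripts were listed. Per kilobase of listed transcript it was the highest of the Fos genes, where the full mRNAs of Fos and Fosb are not counted. By gene, Fosl2 had 4107, 2299 and 1046 counts in control 1 to 3 and 3625, 5401 and 2167 in degenerated 1 to 3, or 272, 163 and 66.7 CPM against 248, 380 and 171 CPM. Control 3 was lowest and degenerated 2 highest, 5.70 times apart, and the groups overlapped because control 1 was above degenerated 1 and 3. With means of 167 ± 103 CPM (SD, n = 3) and 266 ± 106 CPM (SD, n = 3), the log2 fold change was 0.67 (SE 0.54, 95% interval -0.66 to 2.0, edgeR adjusted p = 0.743). Single libraries moved this value by more than 1.5 times. It was 1.20 without control 1 (edgeR adjusted p = 0.447), 0.29 without control 3 and 0.32 without degenerated 2. With a term for the libraries rich in red cell markers, chosen after seeing the data, it was 0.39 (SE 0.40, edgeR adjusted p = 0.800). In the libraries low in these markers, control 1 had 272 CPM and degenerated 1 and 2 had 248 and 380 CPM, which overlapped. In the rich ones control 2 and 3 had 163 and 66.7 CPM and degenerated 3 had 171 CPM. Rich libraries were not even between the groups, and the part of red cells in these values was not tested.

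By transcript, the coding Fosl2-201 took 97.4% to 99.4% of the Fosl2 counts of a library, and its log2 fold change was 0.62 (SE 0.56, edgeR adjusted p = 0.854), from 0.24 without control 3 to 1.20 without control 1. Fosl2-202, a retained intron form, had 19, 38 and 5 counts in control and 16, 44 and 7 in degenerated libraries, and its log2 fold change was 0.11 (SE 0.94, adjusted p = 0.989). Fosl2-203, also with a retained intron, had 7, 21 and 3 counts in control and 12, 33 and 26 in degenerated libraries, and its log2 fold change was 1.23 (SE 0.83, adjusted p = 0.795), from 0.78 without control 3 to 2.32 without control 2. Its share of the Fosl2 counts ran from 0.170% in control 1 to 1.20% in degenerated 3. Groups overlapped in all 3 transcripts.

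Junb encodes a Jun protein of the early response that can oppose Jun. It lies on chromosome 8 (chr8:84974484-84978718, minus strand), and Junb-201, a mRNA of 1 exon, was the listed one of 2 transcripts. By gene, Junb had 5585, 6296 and 2445 counts in control 1 to 3 and 2665, 6543 and 4019 in degenerated 1 to 3, or 370, 445 and 156 CPM against 182, 461 and 317 CPM. Control 3 and degenerated 1 were low, control 2 and degenerated 2 were high, and the groups overlapped over nearly their whole range. The means of 324 ± 150 CPM (SD, n = 3) and 320 ± 139 CPM (SD, n = 3) gave a log2 fold change of -0.02 (SE 0.48, 95% interval -1.19 to 1.16, edgeR adjusted p = 0.993), whose sign turned with single libraries, from -0.38 to 0.28. The highest and the lowest of the 6 libraries stood 2.95 times apart.

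Jund encodes the Jun protein that is expressed steadily and restrains growth in many cells. It lies on chromosome 8 (chr8:70698949-70700616, plus strand), and its only annotated transcript, of 1 exon, was listed. By gene, Jund had 8468, 8503 and 7625 counts in control 1 to 3 and 9817, 9064 and 7520 in degenerated 1 to 3, or 561, 602 and 487 CPM against 672, 638 and 594 CPM. Degenerated libraries were at the upper end, and the groups overlapped because control 2 was above degenerated 3. With means of 550 ± 58.3 CPM (SD, n = 3) and 634 ± 39.1 CPM (SD, n = 3), the log2 fold change was 0.21 (SE 0.12, 95% interval -0.08 to 0.50, edgeR adjusted p = 0.634), and 0.12 without control 3. This was the narrowest interval of the 6 genes, from 0.946 to 1.41 as a fold, and highest and lowest library stood 1.38 times apart.

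**Figure D2:**
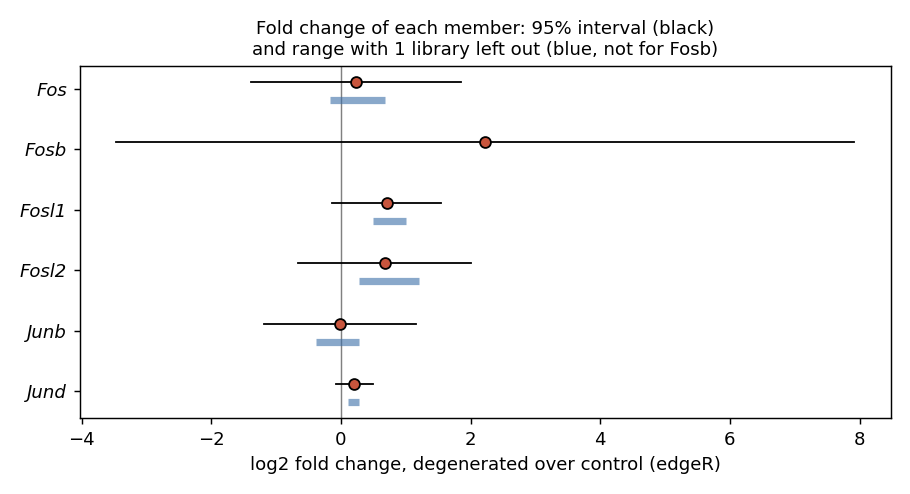
Log2 fold change of degenerated over control libraries for the 6 AP-1 genes with counts, from edgeR (points), with 95% intervals (black) and the range over 6 fits that each leave out 1 library (blue, not drawn for Fosb, whose controls are all at 0 in 1 of these fits). All 6 intervals cross 0, that of Jund is narrowest (-0.08 to 0.50), and the ranges of Fos and Junb hold both signs.

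Egr1, the best known early growth response gene, lies on chromosome 18 (chr18:34859823-34864984, plus strand). Of its 2 annotated transcripts, Egr1-202 was listed, at 0 in all 6 libraries, and Egr1-201 has no row. A count of 0 allows up to 3 counts, which is 0.191 to 0.237 CPM for this transcript by library and covers counting error only. Both transcripts hold a coding sequence of 533 codons, so that the value is one of Egr1-202 alone and not of the gene. Jun, the central Jun protein, on chromosome 4 (chr4:95049034-95052222), and Egr3 on chromosome 14 (chr14:70077203-70082614) had 0 of 1 and 0 of 4 annotated transcripts listed.

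Transcript by transcript, 11 of the 27 annotated transcripts of the 9 genes were listed, 8 had counts and were tested, and 3 were at 0. None of the 8 was called, against 1.79% of 26065 transcripts tested with edgeR (1.14% higher and 0.652% lower). None had an unadjusted p under 0.05, which 7.55% of all transcripts had, and 0.0153% of all had an adjusted p under 0.05. DESeq2 and limma-voom called none of the 8 either. Fosl1-201 alone was separate between the groups, higher in degenerated libraries as 9.13% of all transcripts were, and none was separate and lower, against 7.24% of all. Fosl1-201 had the smallest p of the 8 (log2 fold change 0.66, SE 0.37, adjusted p = 0.756). By transcript the log2 fold change was 0.18 for Fos-204 (SE 0.67, adjusted p = 0.972) and 2.16 for Fosb-205 (SE 2.52, adjusted p = 0.890). It was -0.06 for Junb-201 (SE 0.49, adjusted p = 0.987) and 0.16 for Jund-201 (SE 0.11, adjusted p = 0.798), the latter 0.08 without control 3. Values by gene and by transcript differ slightly because each fit has its own TMM factors.

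By library, control 3 was the lowest library for Fosl2, Fosl1 and Junb, and also for Jund, with Fosl2 at -1.5 and Junb at -0.92 from their means over the 6 libraries on the scale of log2(CPM + 1). Degenerated 2 was the highest for Fosl2, Fosl1 and Junb, with Fosl2 at 0.99 and Junb at 0.63. The other libraries were not in 1 order, since control 2 was above the mean for Junb (0.58) and below it for Fosl2 (-0.23), and degenerated 1 was below it for Junb (-0.70) and above it for Fosl2 (0.38). Among 39 tested immediate early genes outside AP-1 and EGR, control 3 was lowest in 12 (30.8%) and control 1 in 11 (28.2%), where these libraries were lowest in 18.4% and 18.5% of all genes tested. Control 3 was rich in red cell markers and degenerated 2 had the lowest sum of them, 3459 CPM. Control 2 had the highest sum, 40556 CPM, with Junb at 0.58 and Fosl2 at -0.23 from their means. The part of red cells in this order was not tested.

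**Figure D3:**
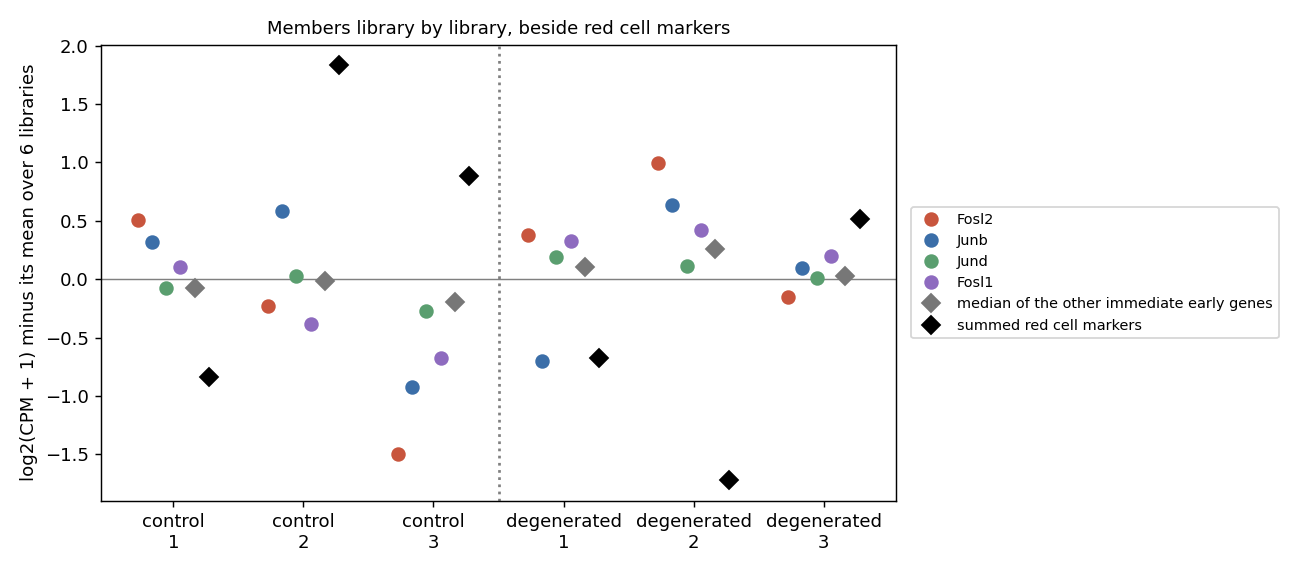
Log2(CPM + 1) minus its mean over the 6 libraries, for 4 AP-1 genes (circles), the median of the other immediate early genes (grey diamonds) and the summed red cell markers (black diamonds), by library. Fosl2 is lowest in control 3 (-1.5) and highest in degenerated 2 (0.99), where red cell markers are lowest (-1.72). Red cell markers are highest in control 2 (1.83), where Fosl2 is at -0.23 and Junb at 0.58.

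Promoters of 6 members (Fos, Fosb, Fosl2, Jun, Junb and Jund) were read as windows of 300 bases (RefSeq, GRCm38.p6). These ran from 250 before to 50 after the start of the gene. Promoters of Fosl1, Egr1 and Egr3 were not searched. Both strands were searched. The AP-1 element TGACTCA was in none of the 6, and in 5.20% of all 32851 windows of this length. The CRE element TGACGTCA, which CREB proteins and some AP-1 pairs bind, was in none of the 6 and in 1.79% of all windows. Its first 5 letters, TGACG, which also lie in the full element, were found in Fos (129 and 66 bases before the start), Fosb and Junb (60 and 106 bases before the start), and in 20.8% of all windows. The EGR element GCGNGGGCG was found in Fosb and Fosl2 and in 5.55% of all windows. Both matches are shown in capitals with 10 bases on each side, since they place the letters of an EGR element before the RefSeq start of 2 Fos genes, which for Fosl2 lies inside the gene as GENCODE annotates it (chr7:19310077-19310105, minus strand, and chr5:32136383-32136411, plus strand):

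Fosb promoter: tgacgcaagcGCGGGGGCGggtcccggag

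Fosl2 promoter: ccggctgcgcGCGGGGGCGgaagggcgcg

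A match describes the letters of the window and is not a bound site.

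Among the partners of AP-1, Atf3 was upregulated. This gene, known to be induced by injury in sensory neurons and to pair with Jun, had 43.8, 35.2 and 26.4 CPM in control 1 to 3 and 102, 90.5 and 100 CPM in degenerated 1 to 3. All 3 degenerated libraries were above all controls, with means of 35.1 ± 8.73 CPM and 97.6 ± 6.26 CPM (SD, n = 3 each). The log2 fold change was 1.48 (SE 0.21, edgeR adjusted p = 0.175, DESeq2 adjusted p = 4.15e-06), and Atf3 was called under all 13 alternative settings. Atf3 was not alone in this, since DESeq2 gave 383 of all genes tested an adjusted p under 0.05. Among these were all 10 called genes of the lists described here, with DESeq2 adjusted p from 2.27e-06 (Sprr1a) to 0.0377 (Ccn2). Of 29 partners and other bZIP factors, 19 were tested and 1 was called, higher (5.26%, with 2.73% of all genes tested called and 2.01% called higher). The median log2 fold change of these 19 was 0.17, and 18 were not called.

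The other EGR genes and their corepressors showed no call among 3 tested of 5. Egr2 had 20.4, 62.5 and 68.7 CPM in control and 19.4, 116 and 13.8 CPM in degenerated libraries, a wide spread in both groups (log2 fold change -0.02, SE 0.91, adjusted p = 0.995). The corepressor Nab1 had 104, 92.8 and 113 CPM in control and 102, 131 and 92.3 CPM in degenerated libraries (log2 fold change 0.07, SE 0.17, adjusted p = 0.918). Its relative Nab2 had 44.0, 44.4 and 62.2 CPM in control and 28.6, 41.4 and 46.6 CPM in degenerated libraries (log2 fold change -0.37, SE 0.25, adjusted p = 0.688), and its fold change was -0.19 without control 3 and -0.20 without degenerated 1. Groups overlapped for all 3. Wt1, with 2, 0 and 25 counts in control and 0, 2 and 0 in degenerated libraries, was too low to be tested, and Egr4 had no listed transcript.

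Of 50 other immediate early genes, 39 were tested, 3 were called higher and none lower (7.69%). Of all genes tested, 2.73% were called and 2.01% were called higher. The median log2 fold change was 0.20, with 27 genes above 0 and 12 below. Dusp5, a phosphatase that turns off ERK in the nucleus, had 16.0, 20.2 and 16.8 CPM in control and 27.9, 32.6 and 38.0 CPM in degenerated libraries (log2 fold change 0.90, SE 0.21, adjusted p = 0.333). Vgf, a neuropeptide precursor induced by neurotrophins, had 8.14, 7.71 and 3.89 CPM in control and 17.8, 23.5 and 36.4 CPM in degenerated libraries (log2 fold change 1.97, SE 0.42, adjusted p = 0.307). Ccn2, a secreted matrix protein, had 352, 366 and 510 CPM in control and 693, 701 and 609 CPM in degenerated libraries (log2 fold change 0.71, SE 0.17, adjusted p = 0.342). In each of the 3 genes the groups were separate, as they were in this direction in 10.3% of all genes tested. These calls were lost when single libraries were left out. Dusp5 fell short of the threshold without control 1, control 3, degenerated 2 or degenerated 3 (log2 fold changes of 0.82, 0.85, 0.89 and 0.78), and Vgf without degenerated 3 (1.64). Ccn2 did so without each library but control 3, with log2 fold changes of 0.60 to 0.77. The list held 1 call without control 1, 1 without degenerated 2 and 0 without degenerated 3.

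Upstream of AP-1, no gene was called among 13 tested SRF, TCF and CREB factors (median log2 fold change 0.14) or among 31 tested MAP kinases and phosphatases (median -0.11, 10 above 0 and 21 below). At an unadjusted p under 0.05, edgeR held 0 of the former and 3 of the latter, and the 3 of 31 are the same share as the 9.68% of all genes tested.

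Genes that textbooks give as AP-1 targets held the most calls, 5 higher and 0 lower of 19 tested (26.3%). Of all genes tested, 2.73% were called and 2.01% were called higher. The list was chosen with earlier results of these data known, and the activity of AP-1 was not tested. Several of them are also known as genes of regrowing neurons. Sprr1a, a small proline-rich protein of injured neurons, had 30, 2 and 24 counts in control and 307, 324 and 349 counts in degenerated libraries (log2 fold change 4.27, SE 0.85, adjusted p = 0.277). Gap43, a growth cone protein, had 7.61, 4.74 and 5.74 CPM in control and 32.6, 14.4 and 27.9 CPM in degenerated libraries (log2 fold change 2.05, SE 0.39, adjusted p = 0.273). Itga7, a laminin receptor subunit, had 38.5, 38.4 and 30.6 CPM in control and 63.4, 71.1 and 77.3 CPM in degenerated libraries (log2 fold change 0.98, SE 0.17, adjusted p = 0.238). In all 3 the groups were separate, as they were in this direction in 10.3% of all genes tested. The cytokines Il11 and Lif, both ligands of gp130 receptors, rose as well. Il11 had 17, 12 and 13 counts in control and 43, 50 and 45 counts in degenerated libraries (log2 fold change 1.83, SE 0.33, adjusted p = 0.240). Lif had 2.65, 4.74 and 2.42 CPM in control and 9.10, 16.8 and 11.8 CPM in degenerated libraries (log2 fold change 1.94, SE 0.42, adjusted p = 0.307), and lost its call without control 1, control 3 or degenerated 2, with log2 fold changes of 1.79, 1.75 and 1.66. The 14 targets that were not called brought the median of the list to 0.33, with 10 genes above 0 and 9 below.

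Heat shock genes, which respond to stress and to tissue handling, were described beside these lists. Of 11 tested, 1 was called, higher (9.09%, with 2.73% of all genes tested called and 2.01% called higher). The list had a median of 0.37 on the log2 scale. Hspb1, a small heat shock protein also known from injured sensory neurons, had 196, 124 and 188 CPM in control and 355, 355 and 387 CPM in degenerated libraries, which were separate (log2 fold change 1.11, SE 0.19, adjusted p = 0.240). Summed levels of the list were 2407 to 2684 CPM in control and 3094 to 4776 CPM in degenerated libraries, and their part in the other lists was not tested.

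**Figure D4:**
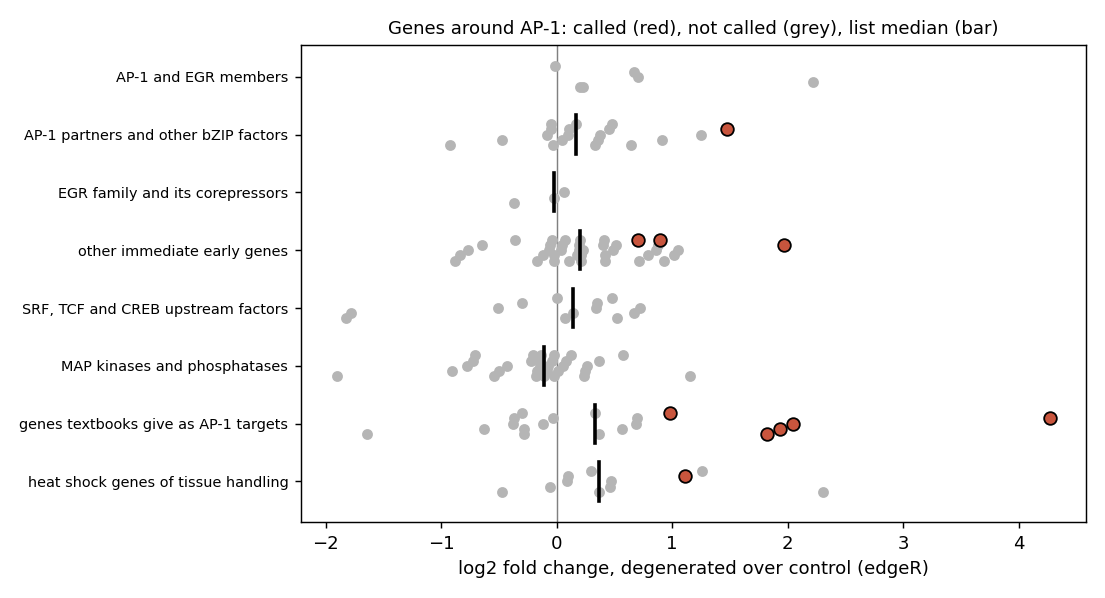
Log2 fold change of degenerated over control libraries (edgeR) for each tested gene of the AP-1 and EGR genes and of 7 lists around them, with called genes in red, others in grey and list medians as black bars. All 10 called genes are higher in degenerated libraries, and none of the 6 AP-1 genes is called. Of the 10, 5 are in the list of textbook AP-1 targets. The lists were chosen with earlier results of these data known, and the activity of AP-1 was not tested. Of all genes tested, 2.73% are called.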

How the data were processed

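RNA of the cochlear modiolus was sequenced in 3 control and 3 degenerated libraries. The authors aligned reads with Hisat2 and estimated expression with StringTie, and the labels list Bowtie and the builds mm8 and mm10 without a role. They deposited 1 table of counts per Ensembl transcript, in whole numbers without normalization, which lists 65535 transcripts. This number is also a row limit of some file formats, and whether the table was cut there is not known, so that a missing row says nothing of a transcript's level. GENCODE M21 (GRCm38) matched 65272 of them (99.6%), and the other 263, with 0.125% of the counts, were left out. A gene's count is the sum over its listed transcripts, 46.0% of those annotated, so that a shift to another transcript can change it. The sources used here do not say whether strand was used.

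Degenerated libraries were compared with controls, by gene and by transcript and without covariates, in R 4.3.3 by the robust quasi-likelihood F test of edgeR 4.0.16, after filterByExpr and TMM scaling. Adjusted p-values are Benjamini-Hochberg over all genes or transcripts tested. A call took an unadjusted p below 0.01 and a log2 fold change beyond 0.2 either way. In its text the study states these criteria for a comparison of knockout with wild type mice, not for this one. SE is the fold change over the square root of F. The script was tested on simulated data. Permutation of single values could not go below p = 0.1 with 3 against 3. Depth was 12480876 to 15549319 counts a library.

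Alternatives were DESeq2 1.42.0, limma-voom 3.58.1, RLE scaling, no filter, a mean count of at least 10, a replicate block, each library left out and, chosen after seeing the data, a term for libraries above 10000 CPM in red cell markers. Members and lists were chosen with earlier results of these data known. Named genes are the members, all EGR relatives, all called genes of the lists, the 3 genes nearest in profile to Fos, and listed member transcripts with at least 20 counts in all.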

Additional observations from a re-analysis of the deposited data

How the results depend on the processing

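The 0 calls among the 6 AP-1 genes tested held under all 13 alternatives. With 2.73% of all genes called in the main test, 0 of 6 is near that share and says little of these genes. Fosb, Fosl1, Fosl2 and Jund kept their direction in all 13. At an adjusted p under 0.05 edgeR held 0 of all 14118 genes, so that 0 AP-1 genes there tells nothing further. DESeq2 called 785 genes (61.0% higher, against 73.8% of the 385 from edgeR, and 383 at an adjusted p under 0.05, against 0) and 1212 transcripts (54.2% higher, against 63.5% of 466). Between libraries of the same replicate number, deviations from the group means correlated at 0.16, -0.09 and 0.07. With 3 libraries a group, these values cannot tell whether samples were paired. With the replicate block 218 genes and 221 transcripts were called. Control 2 deviated most like degenerated 3 (0.24). Leaving out 1 library gave 258 to 497 genes and 411 to 642 transcripts. The sign turned for Junb with limma-voom (0.0214) and the replicate block (0.0186), and for Fosl2-202 with the red cell term (-0.34). With 1 library left out, it turned for Junb (-0.38 to 0.28), Junb-201 (-0.40 to 0.23), Fos (-0.18 to 0.67), Fos-204 (-0.23 to 0.65), Egr2 (-1.62 to 0.42), Nab1 (-0.10 to 0.17) and Fosl2-202 (-0.80 to 0.94). The causes were not tested. Calls ranged from 1 to 2 among bZIP factors, 0 to 3 among other immediate early genes (0 with the replicate block), 4 to 6 among AP-1 targets, 1 to 3 among heat shock genes, 0 to 2 among MAP kinases, 0 to 1 among SRF, TCF and CREB factors and 0 among EGR relatives. Of the 10 called list genes, Dusp5, Ccn2, Vgf and Lif lost their call under 5, 7, 2 and 3 alternatives. Fos had 91 counts, Fosb was at 0 in 3 libraries, and the transcripts listed limit Fos, Fosb, Jun, Egr1 and Egr3.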
